A study of Mus musculus with 6 samples.

Results

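The annexin family was described in cultured J110 and SSM3 cells, both mouse mammary tumour lines. The 10 genes Anxa1, Anxa2, Anxa3, Anxa4, Anxa5, Anxa6, Anxa7, Anxa8, Anxa9 and Anxa11 were taken by symbol from the 52636 Ensembl genes of the count table, and each symbol matched 1 identifier. J110 cells came from transgenic mice in which the MMTV LTR drives AIB1 cDNA, and SSM3 cells from mammary tumours of 129SvEv mice. Each line was represented by 3 libraries, described in the methods as biological replicates. Both media held insulin and hydrocortisone, but SSM3 cells were kept in more serum and more CO2, so line and culture conditions cannot be told apart. Each group was 1 cell line, and p-values measured only the spread between cultures of that line.

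Annexins are cytosolic proteins that bind acidic phospholipids, among them phosphatidylserine, when calcium rises. They share a conserved core of repeats, while a short or long tail in front of the core differs between members and carries the binding sites for small calcium-binding partners of the S100 and EF-hand kind. In epithelial and tumour cells the family is known for membrane repair, vesicle traffic, control of inflammation and assembly of plasminogen activation at the cell surface.

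Promoter sequences, from 250 bases before to 50 bases after the start site, were held in the RefSeq table of GRCm38.p6 for 8 of the 10 genes, with 11 promoters in all. Those of Anxa8 and Anxa1, the genes with the largest difference between the lines, of Anxa2, the annexin with the highest mean in each line, and of Anxa9, which was higher in SSM3 cells, are given 5′ to 3′ on the strand of the gene. Capitals mark matches on either strand to 5 short motifs. These were the TATA box (TATAAA), the CCAAT box, the Sp1 site called the GC box (GGGCGG), the AP-1 site (TGANTCA) and the palindromic estrogen response element.
Anxa8, chr14:34085729-34086028, forward strand: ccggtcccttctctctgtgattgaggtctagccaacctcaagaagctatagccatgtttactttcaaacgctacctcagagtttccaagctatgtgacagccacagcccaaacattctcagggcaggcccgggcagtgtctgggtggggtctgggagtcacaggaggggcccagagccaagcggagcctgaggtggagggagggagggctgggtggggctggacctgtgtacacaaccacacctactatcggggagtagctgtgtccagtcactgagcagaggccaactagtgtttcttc
Anxa1, chr19:20390622-20390921, reverse strand: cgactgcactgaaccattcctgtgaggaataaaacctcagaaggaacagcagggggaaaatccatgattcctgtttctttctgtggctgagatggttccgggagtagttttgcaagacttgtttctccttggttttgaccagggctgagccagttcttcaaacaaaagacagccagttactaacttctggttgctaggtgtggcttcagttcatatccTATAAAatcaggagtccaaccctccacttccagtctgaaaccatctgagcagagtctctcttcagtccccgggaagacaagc
Anxa2, chr9:69453433-69453732, forward strand: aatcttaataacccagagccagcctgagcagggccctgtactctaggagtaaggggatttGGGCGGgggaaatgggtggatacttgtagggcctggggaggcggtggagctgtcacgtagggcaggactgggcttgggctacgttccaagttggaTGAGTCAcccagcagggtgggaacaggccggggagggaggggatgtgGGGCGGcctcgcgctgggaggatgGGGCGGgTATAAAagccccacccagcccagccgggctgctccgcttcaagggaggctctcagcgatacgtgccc
Anxa9, chr3:95307143-95307442, reverse strand: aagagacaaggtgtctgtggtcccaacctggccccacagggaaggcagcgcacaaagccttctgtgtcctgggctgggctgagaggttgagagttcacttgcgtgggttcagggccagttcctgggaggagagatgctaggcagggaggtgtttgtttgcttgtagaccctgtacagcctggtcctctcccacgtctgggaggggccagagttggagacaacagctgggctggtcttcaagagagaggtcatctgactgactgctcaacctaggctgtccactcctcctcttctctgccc

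The Anxa1 and Anxa2 promoters each held a TATAAA match, starting 32 and 17 bases before the start site, and were the only 2 of the 11 annexin promoters with one, where 13.6% of all 32851 promoters in the table held it. TGANTCA, the AP-1 site, was found in the Anxa2 promoter alone, 95 bases before the start site, and in 7.81% of all promoters. GGGCGG was found in 5 of the 11 annexin promoters, 3 times in that of Anxa2, and in 35.7% of all promoters. Both Anxa7 promoters are among the 5. They overlap and share a match, so the 5 are not independent. CCAAT, found in 37.4% of all promoters, and the estrogen response element, found in 0.07%, were in none of the 11. The Anxa8 promoter and the Anxa9 promoter shown held none of the 5 motifs. CpG dinucleotides numbered 3 in the Anxa1 promoter, 5 in that of Anxa8, 13 in that of Anxa2 and 3 in the Anxa9 promoter shown, against a median of 7 over all promoters. The table holds another Anxa9 promoter with 36 CpG dinucleotides, which lies upstream of the annotated gene, and the one at the start of the annotated gene is shown. These matches describe the letters of the window and were not tested against the counts.

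Total counts ranged from 5209740 to 5416305 in the J110 libraries and from 4200785 to 4792941 in the SSM3 libraries. The chi-square per degree of freedom between replicates was 2.21 to 5.62, above sampling noise, so no library was a copy of another. Levels are CPM, counts scaled to a common library size, after TMM scaling, which sets a count of 3 at 0.578 to 0.668 CPM. The libraries were made from the 3′ ends of transcripts, which gives about one tag for each transcript whatever its length, so CPM values were not divided by gene length when genes were set side by side. Of the 5 mammary epithelial markers Krt8 and Krt18 were abundant in both lines, while 3 were far lower in J110. These were Epcam, with 2, 1 and 7 counts in J110 against 2376, 2404 and 2412 in SSM3, Cdh1, with 21, 11 and 28 against 6019, 6369 and 7179, and Krt19, with 74, 59 and 143 against 33815, 32985 and 38701. The mesenchymal gene Vim had 25984, 25068 and 26136 counts in J110 against 34, 87 and 14 in SSM3. The 4 leukocyte markers together reached at most 1.98 CPM in any library and the 5 fibroblast markers 1.98. The 3 endothelial markers reached 2.18 and the 2 erythroid markers 1.34. Of these markers, Col1a2, Lum, Itgam, Tie1 and Hbb-bs had no count. Others had a few, such as Kdr with 8, 11 and 6 counts in J110 and Hba-a1 with 6, 4 and 5 in SSM3. In such bulk samples fewer cells of a type and less RNA per cell cannot be told apart.

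Annexins as a group were less abundant in SSM3 cells. Their summed level was 4599, 4846 and 4705 CPM in the J110 libraries and 1800.1, 1700.1 and 1822 CPM in the SSM3 libraries, a ratio of the means of 2.66. As a share of all counts the J110 libraries gave 0.444% ± 0.013 (SD, n = 3) to the 10 genes, those of SSM3 0.189% ± 0.0056 (SD, n = 3). With library size only in place of TMM, the log2 ratio of the summed levels, SSM3 over J110, was -1.23 in place of -1.41. Of the 10 genes, 9 passed the filter on low counts, and Anxa11 did not. Each was compared with the quasi-likelihood test of edgeR over all genes that passed, and the results are log2 differences, SSM3 minus J110, with a standard error (SE) and a p adjusted by the Benjamini-Hochberg method. Anxa6 and Anxa9 were higher in SSM3 cells, and Anxa1, Anxa2, Anxa3, Anxa4, Anxa5, Anxa7 and Anxa8 were lower.

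These 9 calls stand against a background in which 9566 of 12284 genes (77.9%) passed the same threshold, 38.6% of genes as higher and 39.2% as lower in SSM3. All 9 had no overlap between J110 and SSM3 libraries, which was also true of 79.6% of all genes tested. In a test for a change beyond 2-fold (edgeR's glmTreat), 34.8% of all genes passed, and 6 of the 9 annexins did, without Anxa4, Anxa5 and Anxa7. The median log2 difference was -0.85 over the 9 annexins and -0.014 over all genes tested, whose quartiles were -0.87 and 0.81. With library size only in place of TMM the medians were -0.67 and 0.16, and no annexin changed direction. Anxa8 passed the filter only through its J110 libraries, so its direction and its lack of overlap follow from that.

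**Figure D1:**
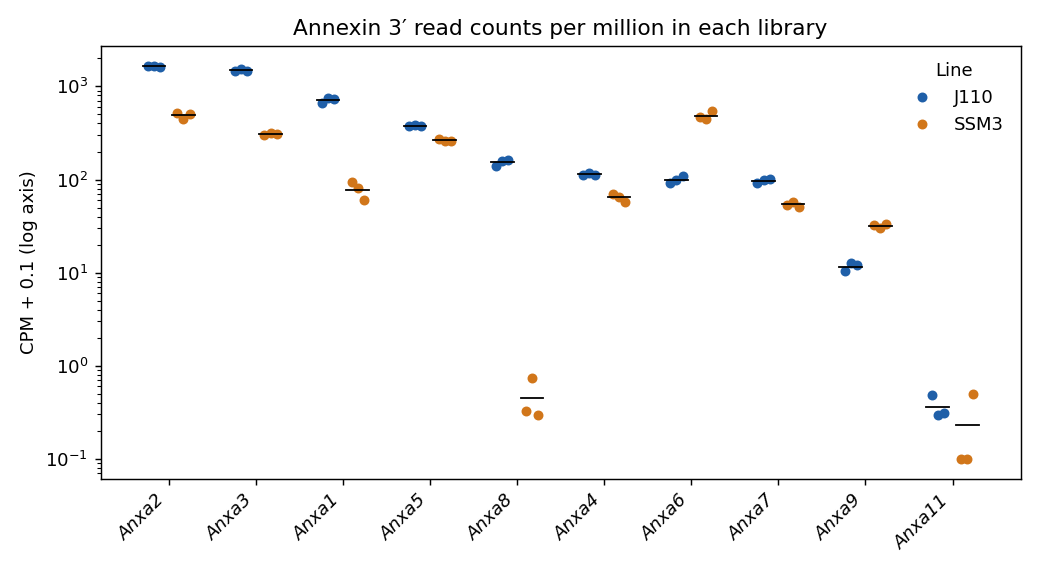
Level of each annexin in every library as CPM plus 0.1 on a log axis, with the 3 J110 libraries in blue, the 3 SSM3 libraries in orange and the mean of each line as a bar, ordered by the mean in J110. Anxa6 and Anxa9 lie higher in SSM3, Anxa11 lies under 0.5 CPM in all 6 libraries, and the other 7 lie lower in SSM3.

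Anxa1 and Anxa2 were among the 3 most abundant annexins in J110 cells and were lower in SSM3 cells. Anxa2 (ENSMUSG00000032231, chromosome 9 of mm10 from 69453620 to 69491795, forward strand) forms a complex with S100a10 at the plasma membrane and docks plasminogen and its activator there. It was counted at 1658, 1674 and 1635 CPM in J110 and 512, 451 and 510.0 CPM in SSM3. All J110 values lay above all SSM3 values, with a log2 difference of -1.75 (SE 0.071, edgeR adjusted p = 1.08e-12), 3.37-fold lower in SSM3. In J110 cells Anxa2 was between the 33rd and the 35th most abundant gene of the table, in SSM3 cells between the 267th and the 316th.

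Anxa1 (ENSMUSG00000024659, chromosome 19 from 20373428 to 20390944, reverse strand) is induced by glucocorticoids, dampens inflammation through formyl peptide receptors and binds S100a11 through its tail. It was counted at 664, 758 and 738 CPM in J110 and 93.1, 80.1 and 60.5 CPM in SSM3. The lines did not overlap, and the log2 difference was -3.21 (SE 0.12, edgeR adjusted p = 2.69e-13), 9.26-fold lower in SSM3. Its SSM3 libraries varied more than those of other abundant annexins, with a coefficient of variation of 21.1% against 2.41% for Anxa3 and 7.07% for Anxa2.

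Anxa3 (ENSMUSG00000029484, chromosome 5 from 96793339 to 96845966, forward strand), best known from neutrophil granules, was counted at 1451, 1544 and 1459.9 CPM in J110 and 301, 316 and 310.2 CPM in SSM3. The log2 difference was -2.27 (SE 0.068, edgeR adjusted p = 2.32e-14), with no overlap between the lines. The leukocyte markers were at or below 1.98 CPM in sum in the same libraries.

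Anxa5 (ENSMUSG00000027712, chromosome 3 from 36448923 to 36475894, reverse strand), whose protein is used to stain phosphatidylserine on dying cells, differed least. It was counted at 379, 387 and 374 CPM in J110 and 271, 259 and 259.9 CPM in SSM3, a log2 difference of -0.53 (SE 0.066, edgeR adjusted p = 1.73e-06). Anxa4 (ENSMUSG00000029994, chromosome 6 from 86736840 to 86793584, reverse strand), a member abundant in secretory epithelia, was counted at 113, 117 and 111 CPM in J110 and 70.4, 65.0 and 57.5 CPM in SSM3. Its log2 difference was -0.82 (SE 0.091, edgeR adjusted p = 4.09e-07). Both genes were lower in each SSM3 library than in each J110 library, but neither passed the test for a change beyond 2-fold. The last exon of Anxa4 shares 75 bases with Gm44036, a long noncoding RNA on the opposite strand that had 117, 109 and 118 counts in J110 and 40, 43 and 29 in SSM3. The strand setting of the counting was not given in the sources used here, so the Anxa4 value is uncertain to that extent.

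Anxa8 (ENSMUSG00000021950, chromosome 14 from 34085981 to 34100571, forward strand), a member linked to endosomes and the actin cytoskeleton, showed the largest difference of the family. It had 733, 792 and 783 counts in J110, or 141, 157 and 163 CPM, and 1, 3 and 1 counts in SSM3, where it was at the limit of detection. The rate in J110 was 437 times that in SSM3, with an exact 95% interval from 187 to 1346. This interval and the other exact intervals on ratios cover counting error only, since reads of an amplified library are not independent molecules. The fitted log2 difference was -8.67 (SE 0.20, edgeR adjusted p = 1.27e-15), which rests on those 5 counts, and without SSM3 replicate 2 it was -9.34. The SSM3 counts of Anxa8 amounted to 0.145%, 0.414% and 0.129% of its mean J110 level. Over 66 other genes with at least 100 CPM in J110 and less than 1% of that level in SSM3, the same libraries held 0.282%, 0.474% and 0.187% of the J110 level, also with the most in replicate 2. Whether the Anxa8 counts in SSM3 share an origin with those was not tested.

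Anxa7 (ENSMUSG00000021814, chromosome 14 from 20455260 to 20480133, reverse strand), a membrane fusion protein that binds sorcin and Pdcd6, was counted at 91.8, 98.3 and 102 CPM in J110 and 53.4, 57.5 and 51.1 CPM in SSM3. It was lower in SSM3 without overlap, with a log2 difference of -0.85 (SE 0.089, edgeR adjusted p = 2.15e-07), and did not pass the test for a change beyond 2-fold. Anxa11 (ENSMUSG00000021866, chromosome 14 from 25842156 to 25886804, forward strand), which binds Pdcd6 and S100a6 and tethers RNA granules to lysosomes, had 2, 1 and 1 counts in J110 and 0, 0 and 2 in SSM3. Both lines were thus within 3 counts per library, and no fold change is given. In the last 500 bases of its protein-coding transcripts, 96 of 852 stretches of 75 bases, the length of a read, also occur in the transcripts of Gm2260 and Gm2274, a pair of pseudogenes elsewhere on chromosome 14 that had no count. How the authors treated reads with several mapping places was not given in the sources used here, so these counts do not show that Anxa11 was silent. Of the other 9 annexins, Anxa4 alone shared any such stretch, 4 of 1074, with Gm44036.

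Anxa6 and Anxa9 were the 2 annexins that were higher in SSM3 cells. Anxa6 (ENSMUSG00000018340, chromosome 11 from 54979108 to 55033445, reverse strand) is built from a duplicated core and acts at late endosomes and in the regulation of EGFR and RAS signalling. It was counted at 90.6, 99.3 and 109.6 CPM in J110 and 467, 441 and 539 CPM in SSM3. Every SSM3 value was more than 4 times every J110 value, and the log2 difference was 2.27 (SE 0.093, edgeR adjusted p = 1.19e-12). Of all genes tested, 1060 had a higher log2 difference.

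Anxa9 (ENSMUSG00000015702, chromosome 3 from 95296096 to 95307176, reverse strand), whose core lacks the usual calcium-binding residues, was counted at 10.2, 12.5 and 11.9 CPM in J110 and 32.5, 30.4 and 32.8 CPM in SSM3. The lines did not overlap, with a log2 difference of 1.47 (SE 0.14, edgeR adjusted p = 8.11e-08). These levels came from 53, 63 and 57 counts in J110 and 146, 143 and 165 in SSM3. The last exon of Anxa9 shares 71 bases with the end of Mindy1 on the opposite strand, which had 83, 88 and 78 counts in J110 and 175, 188 and 206 in SSM3 and was likewise higher in SSM3. Without a stated strand setting, how many Anxa9 counts stem from Mindy1 transcripts was not tested, and the Anxa9 value is uncertain. Anxa9 also shares 94 exon bases with 6330562C20Rik on its own strand, which had 23, 18 and 23 counts in J110 and 8, 10 and 20 in SSM3. The other exon overlaps held few counts or none, with 5, 4 and 3 counts in J110 and none in SSM3 for Gm42603 at Anxa3, and none at all for Gm16144 at Anxa2 and Anxa11os at Anxa11.

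**Figure D2:**
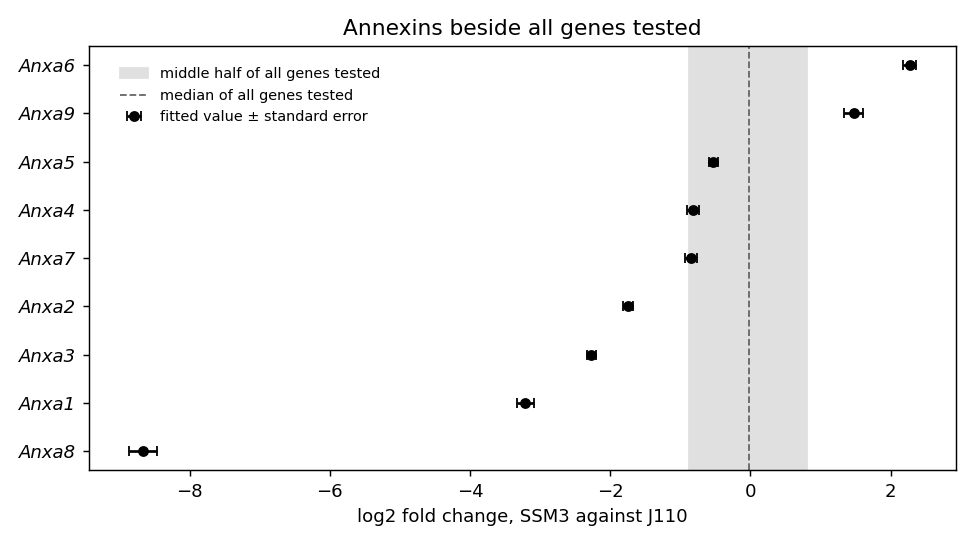
Fitted log2 difference, SSM3 minus J110, of the 9 annexins tested, with the standard error as a bar, beside the span between the quartiles of all genes tested in grey (-0.87 to 0.81) and their median as a dashed line. Anxa4, Anxa5 and Anxa7 fall within the grey band, Anxa6 and Anxa9 to its right and the other 4 to its left, with Anxa8 at -8.67.

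The order of the annexins differed between the lines. In J110 the means fell from Anxa2 at 1656 CPM through Anxa3 at 1485, Anxa1 at 719.8, Anxa5 at 380.1, Anxa8 at 154, Anxa4 at 113, Anxa6 at 99.8 and Anxa7 at 97.4 to Anxa9 at 11.5 CPM, with Anxa11 last, within the floor of 3 counts. Of these neighbours only Anxa6 and Anxa7 overlapped. In SSM3 the means fell from Anxa2 at 491 CPM through Anxa6 at 482, Anxa3 at 309, Anxa5 at 263, Anxa1 at 77.9, Anxa4 at 64.3 and Anxa7 at 54.0 to Anxa9 at 31.9 CPM, with Anxa8 and Anxa11 last, both within the floor of 3 counts and not ordered. Here Anxa2 and Anxa6 overlapped, as did Anxa1 with Anxa4 and Anxa4 with Anxa7.

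Set against one another within a library, where no scaling enters, the annexins changed unequally. Of the annexin counts in J110, 81.8% ± 0.33 (SD, n = 3) fell on Anxa1, Anxa2 and Anxa3, against 49.5% ± 1.02 (SD, n = 3) for SSM3. Anxa6 made up 1.97%, 2.05% and 2.33% in the J110 libraries and 25.9%, 26.0% and 29.6% in those of SSM3. Anxa5, lower in level in SSM3, took a larger share there, 14.8% ± 0.51 (SD, n = 3) against 8.06% ± 0.16 (SD, n = 3). The ratio of Anxa2 to Anxa6 counts was 18.3, 16.9 and 14.9 in the J110 libraries and 1.10, 1.02 and 0.946 in the SSM3 libraries. These shares are a description of the same counts and were not tested apart from them.

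**Figure D3:**
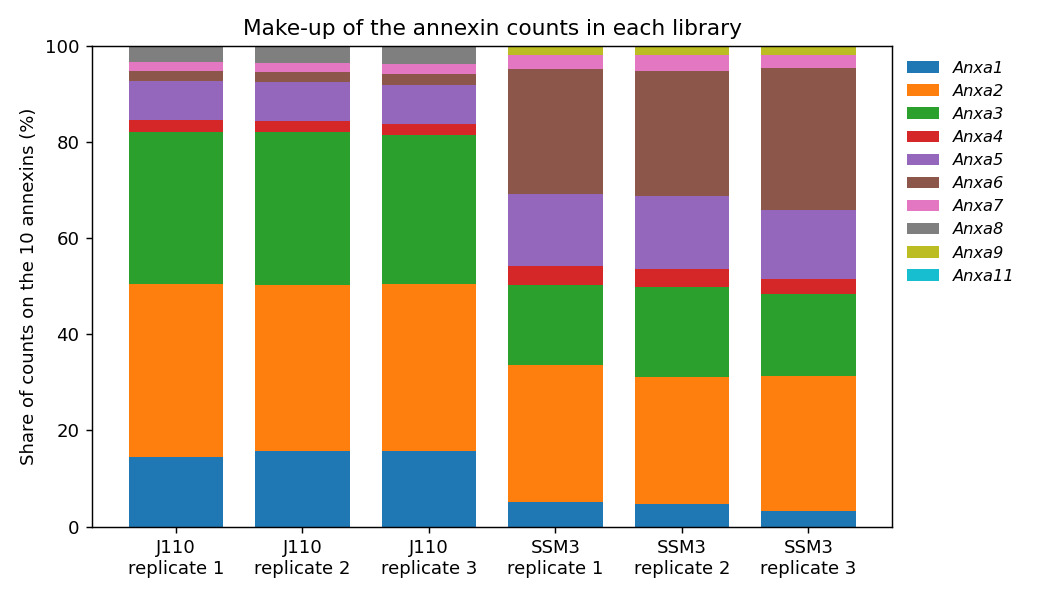
Share of each annexin, in percent of the counts on the 10 genes, in each of the 6 libraries, stacked from Anxa1 at the bottom. Anxa6 takes 1.97% to 2.33% in J110 and 25.9% to 29.6% in SSM3, and Anxa8 takes 3.07% to 3.47% in J110 and under 0.04% in SSM3.

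The direct partners of the S100-binding annexins were lower in SSM3 cells too. S100a10 was counted at 1359, 1369 and 1410.4 CPM in J110 and 499, 439 and 468 CPM in SSM3, a log2 difference of -1.56 (SE 0.069, edgeR adjusted p = 3.78e-12). The ratio of Anxa2 to S100a10 counts was 1.22, 1.22 and 1.16 in J110 and 1.03, 1.03 and 1.09 in SSM3. The ratio was thus higher in each J110 library, although both genes were lower in SSM3 by a similar factor. S100a11 was counted at 460.4, 404 and 505 CPM in J110 and 219.6, 226 and 246 CPM in SSM3, with a log2 difference of -0.99 (SE 0.085, edgeR adjusted p = 1.76e-08). The ratio of Anxa1 to S100a11 counts was 1.44, 1.88 and 1.46 in J110 and 0.424, 0.355 and 0.246 in SSM3. Of all 7 partners and scaffolds listed, S100a10, S100a11, S100a6, S100a4, Pdcd6, Sri and Ahnak, 7 were lower and none higher, where 39.2% of all genes were lower. The call of S100a6 (log2 difference -0.22, edgeR adjusted p = 0.0144) was lost with library size only in place of TMM (-0.04, edgeR adjusted p = 0.613) and without SSM3 replicate 2 (-0.17, edgeR adjusted p = 0.0516). In the test for a change beyond 2-fold 3 of the 7 passed, without S100a11, S100a6, Pdcd6 and Sri, where 34.8% of all genes passed. S100a4, a motility gene, changed most, with 1453, 1446 and 1538 CPM in J110 and 29.8, 31.0 and 24.3 CPM in SSM3 (log2 difference -5.71, SE 0.096, edgeR adjusted p = 6.90e-17).

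Genes of plasminogen activation on the cell surface, the process that the complex of Anxa2 and S100a10 serves, were lower in SSM3 cells in each of the 5 cases that could be tested of 6 listed, where 39.2% of all genes were lower. Of these, 3 (Plat, Plau and Serpinb2) passed the filter on low counts only through their J110 libraries. The filter thus favoured a lower value in SSM3, so their direction carries no weight. The other 2 were Plaur, with a log2 difference of -2.71 (edgeR adjusted p = 2.64e-11), and Plgrkt, with -0.92 (edgeR adjusted p = 0.000156). In the test for a change beyond 2-fold Plaur and the former 3 passed and Plgrkt did not, where 34.8% of all genes passed. The list held the activators Plat and Plau, the receptors Plaur and Plgrkt and the inhibitor Serpinb2, while plasminogen itself (Plg) had no count in any library. Serpinb2 had 88, 94 and 88 counts in J110 and 1, 0 and 0 in SSM3, a ratio of 255 with an exact 95% counting interval from 45.5 to 10127. Its fitted log2 difference was -7.55 (SE 0.45, edgeR adjusted p = 1.63e-10), and -9.48 without SSM3 replicate 1, which held the single count, so that this value is set by the prior count and is no bound.

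**Figure D4:**
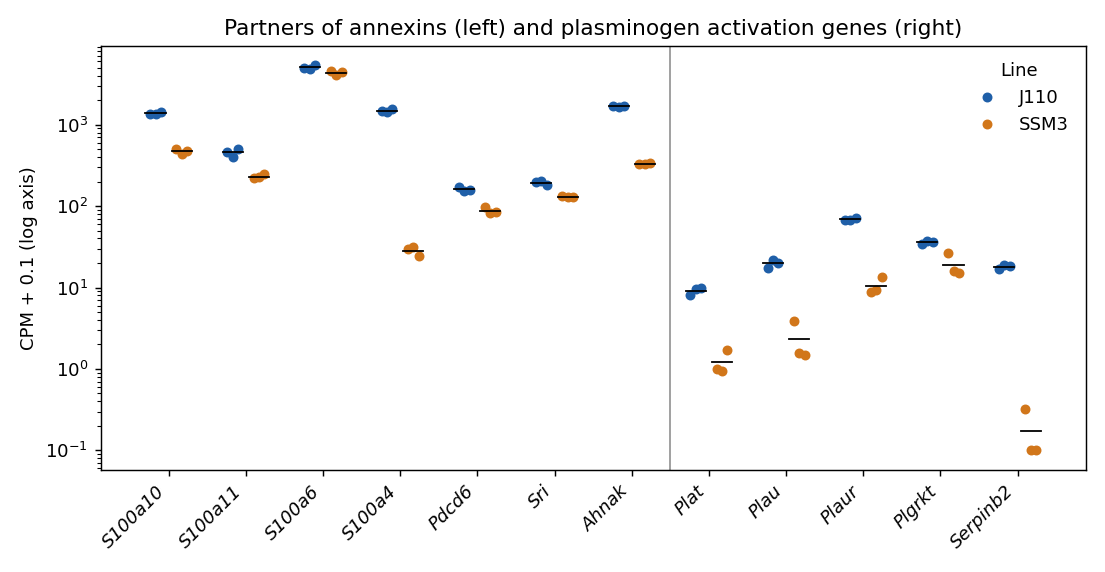
Level in every library, as CPM plus 0.1 on a log axis, of the 7 annexin partners and scaffolds on the left and the 5 tested genes of plasminogen activation on the right, with J110 in blue, SSM3 in orange and the mean of each line as a bar. All 12 genes lie lower in SSM3, S100a6 by the least and Serpinb2 by the most.

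The receptors through which Anxa1 acts were not found in these cells. Fpr1 and Fpr3 had no count and Fpr2 had 1 count, in J110 replicate 3, so none could be tested. Pla2g4a, the cytosolic phospholipase that Anxa1 is known to restrain, was counted at 58.4, 63.3 and 52.0 CPM in J110 and 6.24, 4.46 and 3.98 CPM in SSM3. It was lower in SSM3 with a log2 difference of -3.57 (SE 0.17, edgeR adjusted p = 7.67e-12). Of the annexins that were not among the 10 genes, Anxa10 had 27, 37 and 28 counts in J110 and none in SSM3, at least 29.0-fold lower against a floor of 3 counts over the SSM3 libraries. Anxa13 had no count in any library.

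Genes that act beside annexins in plasma membrane repair gave 3 higher and 4 lower in SSM3 of 7 tested and 8 listed, against 38.6% and 39.2% of all genes. One of those higher, Chmp4b, had a log2 difference of 0.19 (edgeR adjusted p = 0.0438) with overlap between the lines, and Dysf passed the filter only through J110. The call of Chmp4b was lost with upper quartile scaling (edgeR adjusted p = 0.0863), with DESeq2 (adjusted p = 0.068), with at least 10 counts required in every library (edgeR adjusted p = 0.0579), after thinning to the smallest library (edgeR adjusted p = 0.0513), and without J110 replicate 1 (edgeR adjusted p = 0.174), J110 replicate 2 (0.155) or SSM3 replicate 3 (0.238). In the test for a change beyond 2-fold none of the 3 higher genes passed, and of the 4 lower Dysf, Capn2 and Pdcd6ip did. Of all genes tested, 34.8% passed that test in either direction. Capn1, a calpain, was the one with the largest rise, from 35.7, 28.7 and 31.1 CPM in J110 to 51.0, 49.1 and 62.9 CPM in SSM3 (log2 difference 0.77, SE 0.12, edgeR adjusted p = 2.37e-05). Dysf, which encodes the repair protein dysferlin, had 23, 11 and 18 counts in J110 and 1, 0 and 0 in SSM3, a ratio of 49.2 with an exact 95% counting interval from 8.45 to 1980.2. Its fitted log2 difference was -5.18 (SE 0.72, edgeR adjusted p = 5.95e-06), and -7.11, again set by the prior count, without SSM3 replicate 1, which held the single count. Dysf failed the filter and was not tested without J110 replicate 1, without J110 replicate 3 and after thinning to the smallest library. The same held with at least 10 counts required in every library. Trim72 had no count.

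Of 7 genes listed under exposure and flipping of phosphatidylserine, a lipid that annexins bind, 6 were tested. Of these, 2 were higher and 4 lower in SSM3, against 38.6% and 39.2% of all genes. Plscr1, among the lower, passed the filter only through J110. Beyond 2-fold, Plscr3 and Atp11a passed among the higher and Plscr1 among the lower, where 34.8% of all genes passed in either direction. The scramblase Plscr3 was the one with the largest rise, from 26.0, 24.3 and 22.3 CPM in J110 to 81.1, 83.0 and 94.7 CPM in SSM3 (log2 difference 1.83, SE 0.10, edgeR adjusted p = 1.02e-10). Plscr1, of the same family, went the other way, with 256, 280 and 231 counts in J110 and 0, 2 and 0 in SSM3, a ratio of 363 with an exact 95% counting interval from 100.1 to 3001. Its fitted log2 difference was -8.26 (SE 0.33, edgeR adjusted p = 1.05e-12), and -10.97, set by the prior count, without SSM3 replicate 2, which held both counts.

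Over the 6 libraries the genes whose mean-centred log2 CPM lay nearest to that of Anxa6 were Smagp, Irf9 and Prrg2, at a root mean square difference of 0.073, 0.074 and 0.075. Irf9, for example, averaged 11.6 CPM in J110 (SD 0.76, n = 3) against 59.0 CPM in SSM3 (SD 5.17, n = 3). For Anxa8 the nearest were Soat1, Samd4 and Cldn18, at 0.082, 0.122 and 0.123. Soat1 averaged 232 CPM in J110 (SD 20.9, n = 3) against 0.635 CPM in SSM3 (SD 0.370, n = 3). With 2 lines, this measure is set mainly by the size of the difference between them.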

How the data were processed

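RNA of 3 J110 and 3 SSM3 cultures was sequenced from 3′ ends with the QuantSeq kit. The authors removed low quality reads, trimmed with cutadapt (version 2.1), mapped to mm10 with HISAT2 (2.0.4), counted per gene with featureCounts (Subread 2.0.0) and deposited raw counts, without normalisation. Lines and replicate numbers came from the sample titles. Of 52636 gene identifiers, 52489 (99.7%) matched GENCODE M21 of GRCm38, which gave symbols and mm10 positions.

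After filterByExpr and TMM scaling, the counts were compared by edgeR's quasi-likelihood test (version 4.0.16, R 4.3.3, limma 3.58.1) over all 12284 genes kept, with Benjamini-Hochberg adjustment and a threshold of 0.05. A standard error is the log2 difference divided by the square root of F. Ratios where the lower line had at least 1 count, and no more than 3 in any library, carry exact Clopper-Pearson intervals. The test was tried first on simulated counts. Far fewer genes were changed there than were called here, so that trial does not vouch for these calls. The biological coefficient of variation was 8.30%.

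The members, the related gene lists and the motifs were chosen with earlier results of these data known. Named were all members, S100a10, S100a11, Anxa10, Anxa13, the largest change in each direction per list, the 3 nearest genes to the member with the largest rise and fall of at least 10 CPM, genes sharing exons with a member, and marker genes. Other list genes named were chosen after their values were seen. Alternatives included DESeq2 (1.42.0) and limma-voom. Some items of the gene lists and of the sample description are not reported here. Tamoxifen experiments and other lines were not analysed here.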

Additional observations from a re-analysis of the deposited data

How the results depend on the processing

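Of 152 values of the 9 tested annexins under 17 alternatives to the processing, 149 kept their direction and stayed past the threshold. The other 3 came from glmTreat, the test for a change beyond 2-fold, in which Anxa4 (-0.82), Anxa5 (-0.53) and Anxa7 (-0.85) had an adjusted p of 1, by construction of that test. It also left 4 annexins lower in SSM3, 2 related genes higher and 13 lower, and 2094 of all genes higher and 2178 lower. Anxa8 gave no value where at least 10 counts were required in every library. Library size only, without TMM, moved the median over all genes, on the log2 scale, from -0.01 to 0.16 and the log2 ratio of the summed annexin levels from -1.41 to -1.23. Leaving out each library in turn gave 2 annexins higher and 7 lower each time.

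The replicate number as a block gave Anxa6 2.27, Anxa8 -8.68 and calls of 4705 genes higher and 4776 lower, and changed no annexin call. Deviations of same-numbered libraries correlated at 0.012, 0.015 and 0.027, each the highest for its library. Whether same-numbered libraries shared a day or batch was not given in the sources used here and was not tested. Anxa8 in SSM3 and Anxa11 in both lines had at most 3 counts in any library, at or under the floor.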
